A study of Mus musculus with 6 samples.

Results

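The 10 long noncoding RNAs described here, Malat1, Neat1, Meg3, Rian, Mirg, Miat, Snhg11, Peg13, Gas5 and Pantr1, were taken from the deposited table by their GRCm38 gene symbols, as nuclear or imprinted transcripts of the brain. They were chosen as abundant RNAs, but by level per length several of them, Mirg, Pantr1 and Neat1 among them, were far from the top of the tested genes in these libraries. All 10 were found among the 54838 genes of the table, and all 10 were among the 19087 genes with enough counts to be tested. The values come from an RNAseq experiment on mouse hippocampus, the brain region that serves learning and memory. It compared 3 wild-type females with 3 females of the line FVB/NJ-Tg(Orai1)Ibd, all aged 7 months and on the FVB/NJ strain, with 1 library per mouse. The transgenic mice carry a human ORAI1 cDNA, which encodes the pore of a store-operated calcium channel, in a Thy1.2 cassette that drives expression in neurons. They are 1 transgenic line, and an effect of the ORAI1 protein cannot be told apart from an effect of the insertion. The labels give polyA RNA as the molecule, whereas the extraction protocol and the design name total RNA and no selection step, so how RNAs without a poly(A) tail were captured is not known.

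Long noncoding RNAs are long transcripts that are not known to encode a conserved protein, and many of them act in the nucleus. Malat1 collects in nuclear speckles, where splicing factors are stored, and Neat1 is the scaffold on which paraspeckles are built. Meg3, Rian and Mirg are transcribed one after another from the maternal copy of the imprinted Dlk1-Dio3 region and carry snoRNAs and miRNAs in their introns and exons. Peg13 is an imprinted RNA, transcribed from the paternal chromosome within the Trappc9 gene. Gas5 and Snhg11 are host genes whose introns release snoRNAs, the small guides of RNA modification, and the spliced Gas5 RNA is itself degraded when it is translated. Miat is a nuclear transcript of neurons, and Pantr1 lies beside the neural transcription factor gene Pou3f3.

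The first sequences shown are the 3′ ends that set Malat1 and Neat1 apart from other transcripts, since the mature Malat1 and the long Neat1 isoform end in an A-rich tract encoded in the genome instead of an added poly(A) tail. In both RNAs, U-rich motifs pair with an A-rich tract to form a triple helix that protects the end of the RNA. The levels of these RNAs can depend on whether poly(A) RNA was selected, which the sources leave unclear. The stretches below are on GRCm38, minus strand, printed 5′ to 3′ with T for U. The capitals mark exact matches to the U-rich and A-rich motifs named below them. The first U-rich run of the Neat1 stretch matches none of these motifs and is in lower case. The Malat1 stretch lies at chr19:5795982-5796067, which is bases 6606 to 6691 of the longest annotated transcript of 6983 bases. The Neat1 stretch lies at chr19:5824708-5824805 and holds the last bases of the annotated transcript of 20771 bases.
Malat1: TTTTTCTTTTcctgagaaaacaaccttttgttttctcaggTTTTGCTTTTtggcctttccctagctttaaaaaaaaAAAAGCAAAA
Neat1: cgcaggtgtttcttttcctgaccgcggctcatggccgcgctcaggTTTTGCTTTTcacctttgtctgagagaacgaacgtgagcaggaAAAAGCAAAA
The motif TTTTGCTTTT, followed after 5 to 60 bases by AAAAGCAAAA, was searched on the transcript strand in the last 400 bases of the longest annotated transcript of each gene. Of 55450 such transcripts, 2 held this pair, and they were Malat1 and Neat1. The motifs were those of these 2 RNAs, so that both held the pair was fixed in advance. The search shows only that no other of these transcripts held it. Alone, TTTTGCTTTT was present in 0.256% of these windows, AAAAGCAAAA in 0.316% and TTTTTCTTTT, printed first in the Malat1 stretch, in 1.01%. The motifs do not share bases with one another in the stretches shown.

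Mirg hosts a cluster of miRNA hairpins, and a set of its mature miRNAs is shown because Mirg differed between genotypes. The RefSeq table placed 14 hairpin genes with 26 mature miRNAs inside Mirg, and these had 25 different seeds. The capitals mark the seed, bases 2 to 8, with which a miRNA pairs to its targets. The sequences below were read from RefSeq (GRCm38.p6), chromosome 12, plus strand.
mmu-miR-453: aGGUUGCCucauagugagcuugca
mmu-miR-496a-5p: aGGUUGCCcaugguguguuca
mmu-miR-134-5p: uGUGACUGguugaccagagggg
mmu-miR-485-3p: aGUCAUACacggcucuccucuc
mmu-miR-154-3p: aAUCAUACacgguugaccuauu
mmu-miR-369-3p: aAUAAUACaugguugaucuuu
mmu-miR-410-3p: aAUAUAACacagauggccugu
The seed shared by 2 mature miRNAs was that of miR-453, at chr12:109735669-109735692, and miR-496a-5p, at chr12:109739132-109739152. miR-134-5p, at chr12:109734145-109734166, is known as a brain miRNA that limits the size of dendritic spines. Mature miRNAs were not measured in these libraries, and the values for Mirg below are those of the host transcript.

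For Gas5, the bases around a transcription start are shown because Gas5 belongs to the genes whose transcripts begin with a run of pyrimidines. Such 5′ terminal oligopyrimidine transcripts, among them those of the ribosomal proteins, are translated according to the growth state of the cell. The stretch runs from 161035141 to 161035190 on chromosome 1, plus strand (RefSeq, GRCm38.p6), and the capitals mark the run of 5 pyrimidines that opens the transcript at position 161035166.
Gas5: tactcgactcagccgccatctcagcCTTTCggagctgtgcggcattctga
A start of this kind, a C followed by at least 4 further C or T on the transcript strand, was present in 2.51% of 32851 RefSeq starts. Of the 7 members with a start in the table, 2 had it, Gas5 and Miat. A second Gas5 start in the table, at position 161034601, did not have it.

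A wild-type library held 37710188 to 52497799 counts, and a transgenic library 37414241 to 47027279. Orai1 was counted at a mean of 7.47 CPM (counts relative to the scaled library total) in wild-type hippocampi and at 320.2 CPM in those of transgenic mice, which matches the labels. All 8 marker genes of the hippocampus were detected, with a summed level of 1071 to 1098 CPM in wild-type and 1010 to 1069 CPM in transgenic libraries, and none of them passed the test. Markers of the choroid plexus, the epithelium that secretes cerebrospinal fluid and lies against the hippocampus, were lower in transgenic mice for 14 of 15 genes, with summed levels of 3912 to 6043 CPM against 605 to 878 CPM and no marker at 0. The part of the choroid plexus in the differences described next was not tested. In RNA from whole tissue, fewer cells of a type and less RNA per cell cannot be told apart.

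Per length, Meg3 was the most abundant of the 10 RNAs and Mirg the least. In wild-type mice the mean levels, in FPKM (fragments scaled by exon length and by the library total), were 319 ± 28.5 for Meg3, 252 ± 22.7 for Snhg11, 127 ± 21.6 for Malat1 and 89.2 ± 7.30 for Miat (SD, n = 3). Peg13 at 48.4 ± 3.08 FPKM, Rian at 46.5 ± 2.75 FPKM and Gas5 at 34.3 ± 1.61 FPKM followed. Neat1 at 11.9 ± 0.428 FPKM, Pantr1 at 5.74 ± 0.460 FPKM and Mirg at 3.79 ± 0.189 FPKM were the lowest. By level per length, Meg3 ranked 42nd, Snhg11 64th and Malat1 217th of the tested genes in wild-type mice, whereas Neat1 ranked 4328th, Pantr1 7667th and Mirg 9530th. In raw counts Meg3 ranked 5th and Snhg11 13th.

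Of the neighbours in this order, Peg13 and Rian had overlapping values in the wild-type mice, and the other neighbours did not overlap. In the transgenic mice Malat1 and Miat, Peg13 and Rian, and Rian and Gas5 overlapped. The order rests on annotated exon lengths, in which Neat1 has 20771 bp and Mirg 7292 bp, and an isoform shorter than the annotation would have a higher level per length than the value given. For Neat1 the short and the long isoform share their start, so that the single value does not separate them.

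**Figure D1:**
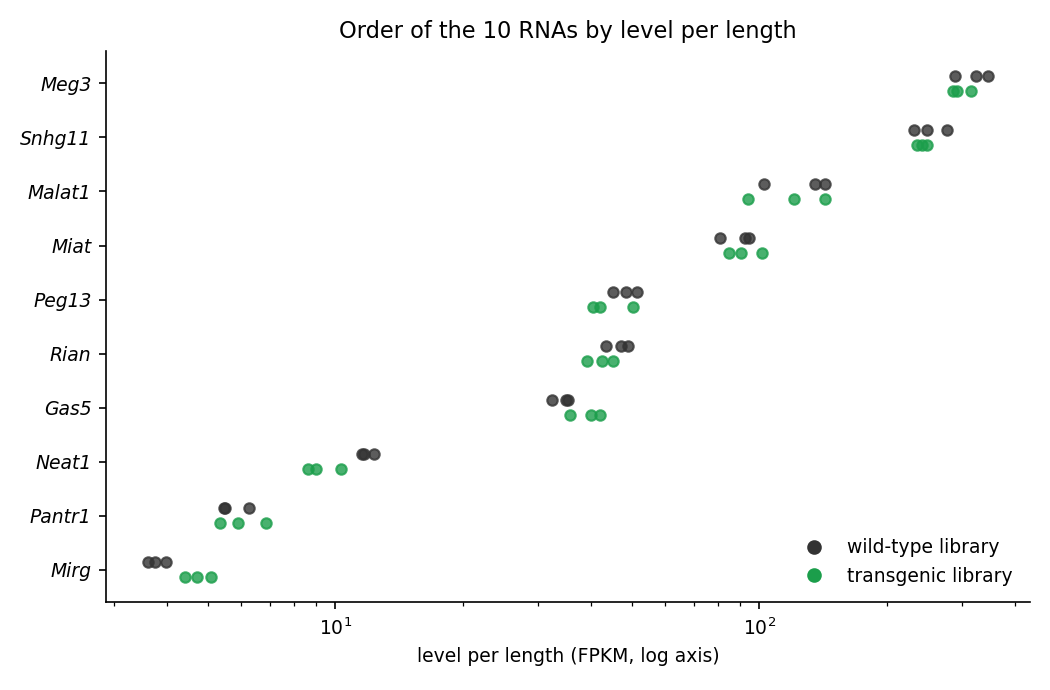
Level per length (FPKM, log axis) of the 10 RNAs in each library, with 1 point per mouse, dark for wild-type and green for transgenic, ordered by the wild-type mean. Meg3 and Snhg11 sit at the top of the order, Neat1, Pantr1 and Mirg at the bottom, and the order of the groups is nearly the same in both genotypes.

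Together, the 10 RNAs took 1.20%, 1.10% and 1.04% of all counts in wild-type mice 1, 2 and 3 and 1.07%, 1.02% and 1.06% in transgenic mice 1, 2 and 3. The groups overlapped, and the mean differed by less than the spread within the wild-type group (1.11% ± 0.0796 against 1.05% ± 0.0251, SD, n = 3, exact two-sided permutation p = 0.3). Meg3 alone accounted for 49.6% to 53.3% of the counts of the 10 RNAs. With 3 mice per genotype such a test cannot give a p below 0.1.

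Between genotypes, Neat1 was lower and Mirg higher in transgenic hippocampi, Gas5 was higher without passing the adjustment, and the other 7 RNAs did not pass the test. An adjusted p under 0.05 (quasi-likelihood test of edgeR) was reached by 2 of the 10, 1 in each direction. At an unadjusted p under 0.05 there were 3 of the 10, against 27.8% of all tested genes. Across all tested genes 7.10% passed the adjustment, 3.10% higher and 4.0% lower. The values of the genotypes did not overlap for 3 of the 10, Neat1, Mirg and Gas5, a share close to the 34.9% of all tested genes. The median log2 fold change of the 10 was -0.07, against -0.01 over all tested genes, and 4 of them had a fold change above 0 and 6 below it. Leaving out 1 mouse lowered the number of all genes that passed from 1355 to between 77 and 1149. The 2 differences that passed were a mean level in transgenic mice at 78.8% of the wild-type mean for Neat1 and at 125.3% for Mirg.

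**Figure D2:**
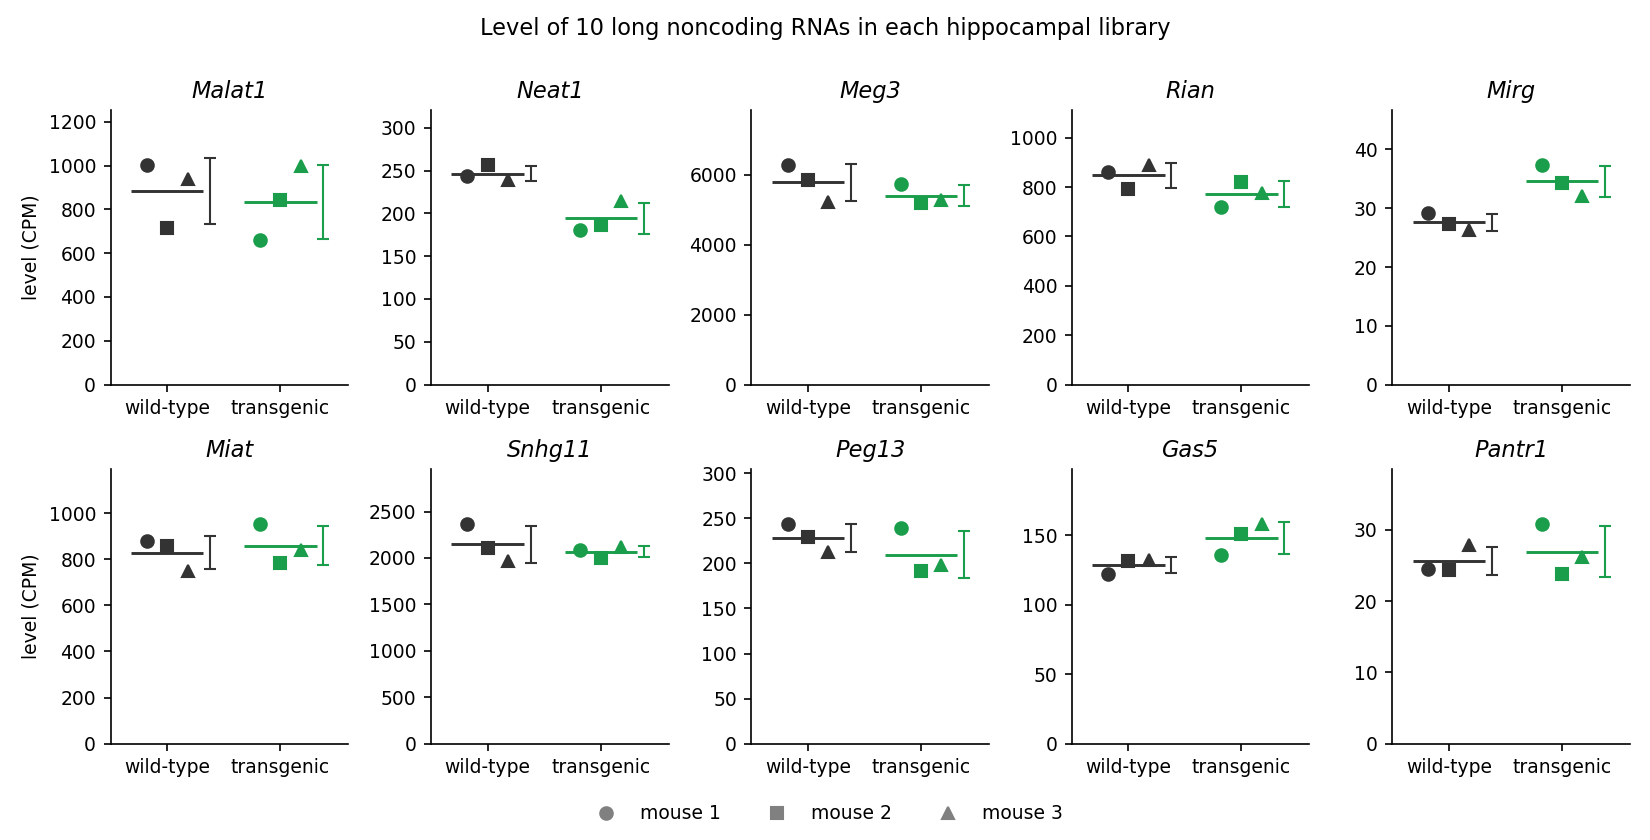
Level in CPM (vertical axes from 0, 1 scale per RNA) of the 10 RNAs in each mouse, with lines at the group means and bars of 1 SD beside them. The transgenic points lie below all wild-type points for Neat1 and above them for Mirg and Gas5, and the groups overlap for the other 7 RNAs.

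Neat1 (ENSMUSG00000092274, chr19:5824708-5845478, minus strand, a single exon) was measured at 243.5, 256.4 and 239.2 CPM in wild-type mice 1 to 3 and at 180.9, 187.0 and 214.4 CPM in transgenic mice 1 to 3. Every transgenic value was below every wild-type value, and the mean fell from 246.4 ± 8.96 to 194.1 ± 17.8 CPM (SD, n = 3). The log2 fold change was -0.34 ± 0.070 (SE), with an adjusted p of 0.0353. Neat1 is among the longest genes tested (percentile 99.5 by exon length). When a trend on gene length was removed from each library the log2 fold change was -0.18 with an adjusted p of 0.138, and with a trend on GC content removed it was -0.32 with an adjusted p of 0.0585. The call was also lost without wild-type mouse 1, 2 or 3 (log2 fold changes -0.34, -0.30 and -0.36, adjusted p = 0.139, 0.143 and 0.0527) and without transgenic mouse 2 (-0.29, adjusted p = 0.0999), and it held without transgenic mouse 1 or 3.

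Malat1 (ENSMUSG00000092341, chr19:5795690-5802672, minus strand) is the neighbour of Neat1 on the same strand, 22036 bp away. It was the most variable of the 10 RNAs within a genotype. Its levels were 1002, 714 and 939 CPM in wild-type mice 1 to 3 and 660, 843 and 997 CPM in transgenic mice 1 to 3. The groups overlapped almost fully, with wild-type mouse 2 and transgenic mouse 1 low and transgenic mouse 3 about as high as wild-type mouse 1. The log2 fold change was -0.09 ± 0.17 (SE, adjusted p = 0.781), and its sign turned when transgenic mouse 1 was left out (0.06) or wild-type mouse 1 was left out (0.02). The spread of Malat1 was 17.1% and 20.2% of the mean in the respective genotypes, against 3.64% and 9.18% for Neat1. On the log2 scale, the ratio of Malat1 to Neat1 per length was 3.40 ± 0.308 in wild-type and 3.66 ± 0.190 in transgenic mice (SD, n = 3), with overlapping groups (exact permutation p = 0.3, 0.40 when adjusted over the 4 ratios tested).

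The proteins of the bodies in which these RNAs reside were looked at next. Of 20 paraspeckle proteins tested none passed (5 at an unadjusted p under 0.05, near the 27.8% of all tested genes, and 1 with DESeq2), with a median log2 fold change of -0.08, which was -0.0016 with GC offsets. Among them Matr3, a nuclear matrix protein, was at 446 CPM against 383 CPM in the transgenic mice (log2 fold change -0.22, adjusted p = 0.124). Of 28 nuclear speckle proteins, 2 were lower and 1 higher, against 4.0% and 3.10% of all tested genes, with a median of -0.03 (0.02 with GC offsets). Son, the core scaffold of the speckle, fell from 551 ± 27.8 to 447 ± 14.6 CPM (SD, n = 3, log2 fold change -0.30, adjusted p = 0.0281). The splicing factor Sf3b1 fell from 357 ± 15.5 to 297 ± 2.86 CPM (log2 fold change -0.26, adjusted p = 0.0279), and Acin1, a protein of the exon junction complex, rose from 168 ± 4.14 to 197 ± 9.26 CPM (log2 fold change 0.23, adjusted p = 0.0395). Without wild-type mouse 1 or 2, or without transgenic mouse 2 or 3, 0 of the 28 passed, and 1 passed with length offsets or with the replicate block.

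In the imprinted Dlk1-Dio3 region on chromosome 12, Mirg passed the test and Meg3 and Rian did not, and the exact tests of the ratios between them, which cannot pass with 3 against 3, did not pass. Meg3 (ENSMUSG00000021268, chr12:109541001-109571726), Rian (ENSMUSG00000097451, chr12:109603940-109661716) and Mirg (ENSMUSG00000097391, chr12:109729764-109749460) lie on the plus strand with gaps of 32214 bp and 68048 bp between them. Mirg, the last of the 3, was measured at 29.2, 27.4 and 26.3 CPM in wild-type mice 1 to 3 and at 37.3, 34.3 and 32.2 CPM in transgenic mice 1 to 3, with no overlap. Its mean rose from 27.6 ± 1.47 to 34.6 ± 2.60 CPM (SD, n = 3), a log2 fold change of 0.33 ± 0.072 (SE, adjusted p = 0.0423). These levels rest on 994 to 1741 counts per library. The log2 fold change was 0.27 with GC offsets (adjusted p = 0.0761) and 0.37 with length offsets (adjusted p = 0.0378), under which 4.32% of all genes passed and Mirg was the 1 of the 10 to do so. Leaving out any 1 mouse ended the call: without wild-type mouse 1, 2 or 3 the log2 fold changes were 0.38, 0.34 and 0.30 (adjusted p = 0.126, 0.145 and 0.0797), and without transgenic mouse 1, 2 or 3 they were 0.27, 0.36 and 0.40 (adjusted p = 0.0581, 0.0916 and 0.0843).

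Meg3, the first gene of the series and a growth-restraining RNA, was measured at 6267, 5844 and 5205 CPM in wild-type mice 1 to 3 and at 5742, 5179 and 5277 CPM in transgenic mice 1 to 3. The groups overlapped, with wild-type mouse 3 at the level of transgenic mice 2 and 3 (log2 fold change -0.10 ± 0.089, SE, adjusted p = 0.526). Rian, a host of snoRNAs, was measured at 861, 793 and 889 CPM in wild-type mice 1 to 3 and at 719, 822 and 775 CPM in transgenic mice 1 to 3. The groups overlapped through wild-type mouse 2 and transgenic mouse 2 (log2 fold change -0.13 ± 0.070, SE, adjusted p = 0.254). Rian has the lowest GC content of the 10, 35.8% against a median of 49.5% over the tested genes, and its log2 fold change turned to 0.10 (adjusted p = 0.368) with GC offsets.

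A ratio within a library does not depend on how libraries are scaled, but these ratios were not corrected for trends on GC content or length. With GC offsets the log2 fold changes of Rian and Mirg, 0.10 and 0.27, lay closer together than without offsets (-0.13 and 0.33). The log2 ratio of Meg3 to Mirg per length was 6.44, 6.43 and 6.32 in wild-type and 5.95, 5.93 and 6.05 in transgenic mice 1 to 3, without overlap. Its mean fell by 0.42, from 6.39 ± 0.0645 to 5.98 ± 0.0623 (SD, n = 3, exact two-sided permutation p = 0.1, the smallest that 3 against 3 can give). For Rian to Mirg the log2 ratio was 3.56, 3.53 and 3.76 in wild-type and 2.95, 3.26 and 3.27 in transgenic mice 1 to 3, again without overlap, and the mean fell by 0.46 (exact permutation p = 0.1). Both p were 0.2 when adjusted over the 4 ratios tested. The log2 ratio of Meg3 to Rian was 2.78 ± 0.187 and 2.82 ± 0.174, with overlapping groups (exact permutation p = 0.8).

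**Figure D3:**
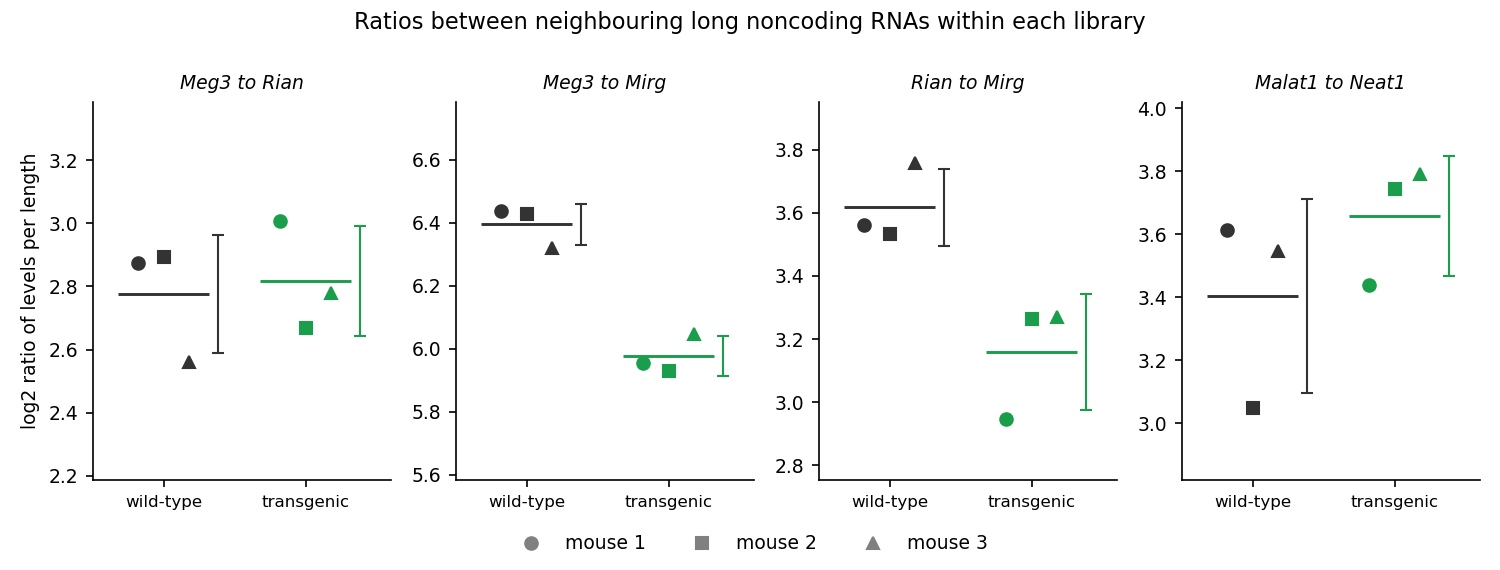
Log2 ratio of the levels per length of pairs of neighbouring RNAs within each library (vertical axes span the same width but do not start at 0), with the mean as a line and 1 SD as a bar. Meg3 to Mirg and Rian to Mirg are lower in all 3 transgenic mice than in any wild-type mouse, whereas Meg3 to Rian and Malat1 to Neat1 overlap. No GC or length offsets were applied.

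The rest of the region gave few counts. Between the start of Dlk1 and the end of Dio3 the annotation has 115 other genes, 67 of them miRNAs and 23 snoRNAs; 34 had no count in any library, and 23 were tested. None of the 23 passed (6 at an unadjusted p under 0.05, near the 27.8% of all tested genes, 0 with DESeq2, 1 with the replicate number as a block, 2 with length offsets and the block, and 1 without wild-type mouse 3), and their median log2 fold change was 0.02 (-0.06 with GC offsets). Dlk1, a paternally expressed Notch-like ligand, had 19.6 ± 6.41 CPM and 19.6 ± 4.17 CPM in the respective genotypes (SD, n = 3). Dio3, the enzyme that inactivates thyroid hormone, had 5.35, 3.82 and 3.01 CPM in wild-type mice 1 to 3 and 9.07, 6.13 and 4.62 CPM in transgenic mice 1 to 3, with overlap (log2 fold change 0.70, adjusted p = 0.162). Rtl1, the retrotransposon-derived gene whose start lies 3610 bp from that of Rian on the opposite strand, had 0.44, 0.36 and 2.72 CPM in wild-type mice 1 to 3 and 0.60, 3.75 and 2.70 CPM in transgenic mice 1 to 3. It was high in wild-type mouse 3 and transgenic mice 2 and 3, a split that crosses the genotypes.

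Small RNA genes inside the hosts had few counts beside their hosts. Inside Rian lie 13 snoRNA and 4 miRNA genes, which together had 146 to 381 counts per library against 29027 to 45048 for Rian. Inside Mirg lie 14 miRNA genes with 84 to 135 counts per library in all. For Gas5, 10 snoRNA genes lie inside and had 0 counts in every library. Fragments over bases shared by genes on the same strand were not assigned to either gene, and such bases make up 5.03% of the exonic length of Mirg and 17.8% of that of Gas5. Small RNA genes that lie in annotated exons of a host can thus have few or 0 counts whatever their level.

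Among the snoRNA hosts, Gas5 was higher in every transgenic mouse than in any wild-type mouse, while Snhg11 overlapped. Gas5 (ENSMUSG00000053332, chr1:161034422-161038539, plus strand) was measured at 122.2, 131.5 and 132.3 CPM in wild-type mice 1 to 3 and at 135.8, 150.7 and 158.0 CPM in transgenic mice 1 to 3. The log2 fold change was 0.20 ± 0.065 (SE, adjusted p = 0.0960), so that Gas5 did not pass over all genes. It did pass with GC offsets (log2 fold change 0.32, adjusted p = 0.0324), with DESeq2's test (0.21, adjusted p = 0.0330) and without transgenic mouse 1, the lowest of the transgenic values (0.26, adjusted p = 0.0369). The GC content of Gas5 is 42.3%. With GC offsets 2.30% of all genes passed, and Gas5 was the 1 of the 10 to do so.

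Snhg11 (ENSMUSG00000044349, chr2:158375638-158386145, plus strand), annotated as protein_coding although it is known as a noncoding host gene of neurons, was measured at 2363, 2110 and 1966 CPM in wild-type mice 1 to 3 and at 2081, 2001 and 2116 CPM in transgenic mice 1 to 3. The transgenic values lay within the wild-type range (log2 fold change -0.06 ± 0.078, SE, adjusted p = 0.689). Of 15 other noncoding snoRNA hosts tested, none passed (6 at an unadjusted p under 0.05, against 27.8% of all tested genes). With DESeq2, with no filter or without transgenic mouse 1, 1 passed in each case. Of these 15, 12 had a fold change above 0, with a median log2 fold change of 0.10, which was 0.22 with GC offsets. The host genes with the highest levels among them were Snhg14, the transcript across the Prader-Willi region, at 122.5 CPM against 94.4 CPM in the transgenic mice (log2 fold change -0.38, adjusted p = 0.0749), and Zfas1 at 20.6 and 25.7 CPM (log2 fold change 0.32, adjusted p = 0.129).

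Peg13 (ENSMUSG00000106847, chr15:72805600-72810324, minus strand) is a single-exon transcript within an intron of Trappc9, on the same strand and with no overlap with a Trappc9 exon. It was measured at 243, 229 and 213 CPM in wild-type mice 1 to 3 and at 239, 191 and 198 CPM in transgenic mice 1 to 3. Transgenic mouse 1 was as high as the wild-type mice and the other two were below them (log2 fold change -0.12 ± 0.092, SE, adjusted p = 0.423). Unspliced Trappc9 RNA would be counted on Peg13. The host gene Trappc9, a vesicle trafficking protein, was at 69.7 CPM in the wild-type and at 72.2 CPM in the transgenic group (log2 fold change 0.05, adjusted p = 0.637). Of 43 other imprinted genes tested, 3 were lower and none higher, a share near the 7.10% of all tested genes that passed, with a median log2 fold change of -0.06 (with GC offsets 1 passed and the median was -0.04). Mest, a hydrolase-like protein, fell from 21.7 ± 0.988 to 15.5 ± 0.432 CPM (SD, n = 3, log2 fold change -0.49, adjusted p = 0.0114). Herc3, a ubiquitin ligase, fell from 173 ± 8.70 to 144 ± 5.55 CPM (log2 fold change -0.26, adjusted p = 0.0354), and Inpp5f, a phosphoinositide phosphatase, fell from 123.5 ± 2.56 to 106 ± 2.26 CPM (log2 fold change -0.22, adjusted p = 0.0291). Without wild-type mouse 1 or 2, or transgenic mouse 2 or 3, the number of these imprinted genes that passed was 0.

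Miat (ENSMUSG00000097767, chr5:112213228-112229395, minus strand) was measured at 879, 859 and 749 CPM in wild-type mice 1 to 3 and at 952, 786 and 839 CPM in transgenic mice 1 to 3. The groups overlapped (log2 fold change 0.05 ± 0.091, SE, adjusted p = 0.753). Pantr1 (ENSMUSG00000060424, chr1:42590782-42694842, minus strand) was measured at 24.5, 24.3 and 27.8 CPM in wild-type mice 1 to 3 and at 30.8, 23.8 and 26.2 CPM in transgenic mice 1 to 3. Transgenic mice held both its highest and its lowest value (log2 fold change 0.08 ± 0.10, SE, adjusted p = 0.670). Pou3f3, a POU-domain factor whose start lies 926 bp from that of Pantr1, was at 112.6 CPM in the wild-type and at 110.3 CPM in the transgenic group (log2 fold change -0.03, adjusted p = 0.753).

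**Figure D4:**
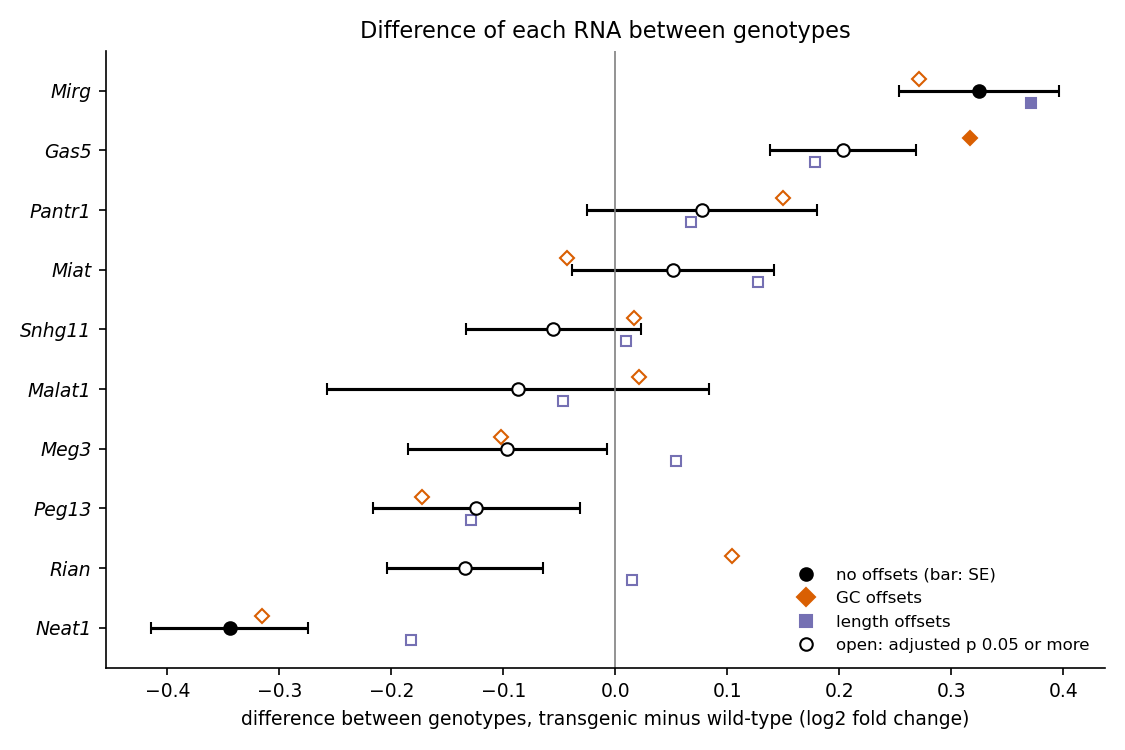
Log2 fold change (transgenic minus wild-type) of the 10 RNAs without offsets, with bars of 1 SE, and with offsets for GC content or gene length, without bars. Filled symbols have an adjusted p under 0.05: Neat1 and Mirg without offsets, Gas5 with GC offsets and Mirg with length offsets, and the symbols of Rian lie on both sides of 0.

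Several of the 10 RNAs also differed between mice of the same genotype in a shared order. Wild-type mouse 3 had the lowest wild-type value for 6 of the 10, transgenic mouse 1 had the highest transgenic value for 5, and both held for 4, Meg3, Mirg, Miat and Peg13. How often all tested genes have these orders was not counted. Over 11191 genes of higher level, the deviations of these 2 mice from their group means correlated at -0.59. An opposite course of the 2 mice was thus not particular to the 10 RNAs. Markers of astrocytes, the supporting glia, had summed levels of 4981, 5042 and 6756 CPM in wild-type mice 1 to 3 and of 4890, 6078 and 5999 CPM in transgenic mice 1 to 3. Those of microglia, the resident immune cells, summed to 211, 227 and 298 CPM and to 215, 336 and 319 CPM in the same order. For both lists wild-type mouse 3 and transgenic mice 2 and 3 were high, and none of the 7 markers of either list passed the test between genotypes. In each genotype Meg3, Mirg, Miat and Peg13, the 4 picked for that order, were lower in the mice with more astrocyte and microglia marker RNA. Endothelial markers were high in the same mice, at 173, 177 and 187 CPM in wild-type and 169, 227 and 203 CPM in transgenic mice 1 to 3. Choroid plexus markers, at 5836, 6043 and 3912 CPM and at 878, 605 and 749 CPM, were lowest in wild-type mouse 3 and highest in transgenic mouse 1, as the 4 RNAs were. The other glial lists had the order of the astrocyte and microglia markers in the wild-type but not in the transgenic mice. Oligodendrocyte markers summed to 4463, 5292 and 6013 CPM in wild-type and to 5757, 5657 and 6325 CPM in transgenic mice 1 to 3. Those of their precursors summed to 137, 141 and 166 CPM and to 131, 252 and 121 CPM. Rian and Gas5 ran the other way, with wild-type mouse 3 the highest and transgenic mouse 1 the lowest of their genotypes, and Malat1 and Neat1 were also lowest in transgenic mouse 1 among the transgenic mice. The part of astrocyte, microglia or other cell-type RNA in these values was not tested. Neuronal markers summed to 11799, 11569 and 11352 CPM in wild-type and to 11958, 11297 and 11272 CPM in transgenic mice 1 to 3. Their sum was thus also lowest in wild-type mouse 3 and highest in transgenic mouse 1 within the genotypes. Of the 11 neuronal markers, 1 was higher (Slc17a7) and 1 lower (Gad2), against 3.10% and 4.0% of all tested genes.

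**Figure D5:**
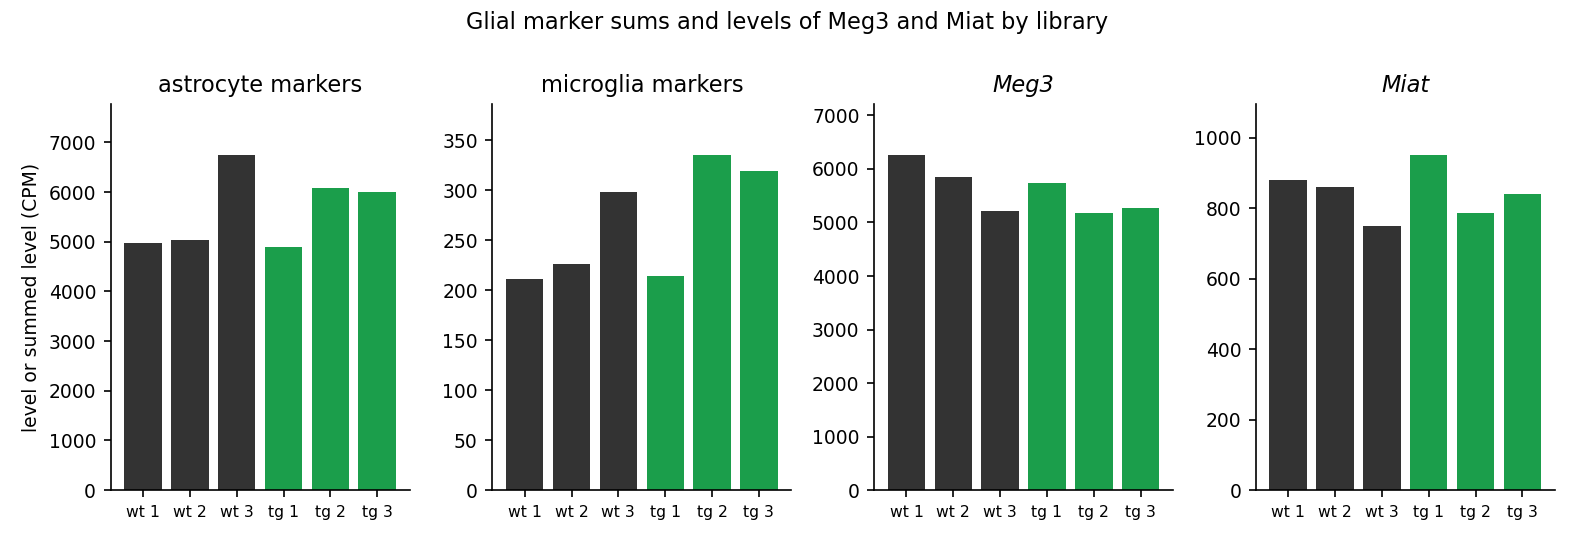
Summed level (CPM, axes from 0) of 7 astrocyte and 7 microglia markers and level of Meg3 and Miat, with 1 bar per library, dark for wild-type (wt) and green for transgenic (tg). Wild-type mouse 3 and transgenic mice 2 and 3 have the taller marker bars and, within their genotype, the shorter Meg3 and Miat bars.

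Of the protein-coding genes whose annotated start lies within 250 kb of the start of one of the 10 RNAs, 51 were tested. Of these, 4 were higher and 1 lower, against 3.10% and 4.0% of all tested genes. The median of their log2 fold changes was 0.10. With GC offsets 2 of them passed and the median was 0.03, and with length offsets 3 passed. Near Miat, Asphd2 rose from 97.0 ± 3.63 to 123 ± 3.14 CPM (SD, n = 3, log2 fold change 0.34, adjusted p = 0.0139) and Hps4, a protein of lysosome-related organelles, rose from 22.3 ± 1.49 to 30.7 ± 3.85 CPM (log2 fold change 0.46, adjusted p = 0.0375). The gene Ehbp1l1, near both Malat1 and Neat1, rose from 23.8 ± 1.27 to 30.6 ± 1.53 CPM (log2 fold change 0.36, adjusted p = 0.0272). The fourth gene that was higher was Fau, a ribosomal protein fusion gene near Neat1, at 110 CPM against 139 CPM in the transgenic mice. Near Snhg11, Lbp, a protein that binds bacterial lipopolysaccharide, fell from 35.8 ± 5.92 to 7.21 ± 1.07 CPM (log2 fold change -2.31, adjusted p = 0.000754). No protein-coding gene had its start within this distance of the start of Peg13, which itself lies within an intron of Trappc9. None of those tested near Meg3, Rian, Mirg, Gas5 and Pantr1 passed. With 1 mouse left out, 1 to 7 of the 51 passed, and 1 or 2 where the mouse was wild-type mouse 1 or 2 or transgenic mouse 2 or 3.

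Of 26 other long noncoding genes of the brain, 1 passed, against 7.10% of all tested genes. Tsix, the antisense transcript of Xist, fell from 1.43 ± 0.280 to 0.373 ± 0.169 CPM (SD, n = 3, log2 fold change -1.92, adjusted p = 0.0262), on 47 to 74 counts per wild-type and 7 to 20 counts per transgenic library. Fragments were assigned by strand, and Xist, the RNA that coats the inactive X chromosome, was at 1073 CPM in the wild-type and at 836 CPM in the transgenic group (log2 fold change -0.36, adjusted p = 0.0683). The median log2 fold change of the 26 was -0.06, near that of the 10 RNAs. The call of Tsix rests on few counts, and 0 of the 26 passed without wild-type mouse 1 or 2, without transgenic mouse 2 or 3, or with at least 10 counts required in every library.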

How the data were processed

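RNA from hippocampi was sequenced, 1 library per mouse, with 3 mice per genotype, each placed in its genotype by the labels. The authors filtered reads with Trimmomatic, aligned them to mm10 with STAR and counted fragments with featureCounts 1.5.0-p1 on Ensembl 95 (stranded, setting 2, mapping quality of at least 3, primary alignments). The authors deposited raw counts per gene, not normalized, with the exonic length of each gene as another column, and all 6 columns were used. Here, genes were kept by edgeR's filterByExpr (minimum count 10) and scaled by TMM, and genotypes were compared with the quasi-likelihood test (edgeR 4.0.16, R 4.3.3) over 19087 genes with Benjamini-Hochberg adjustment. The SE was the log2 fold change divided by the square root of F. Shares and ratios were tested by exact permutation. The paper's tool, NOISeq, was not used here.

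Alternatives were DESeq2 1.42.0 (size factors, Wald test), total counts, the upper quartile, no filter or 10 counts in every library, a replicate block, offsets from a loess trend (span 0.5) on GC content or length, and each mouse left out. The fits were tested on simulated data, where a larger share of the calls was false with DESeq2's test than with the main fit. The 10 members and the gene lists were chosen with earlier results of these data known. From each list up to 4 genes with the largest change among those that passed are named, or the 2 with the highest mean level where none passed; 1 gene under this rule is not reported here. Fau, Xist, Rtl1, Trappc9 and Pou3f3 are named outside this rule, after their values were seen. Annotation and transcript sequences came from GENCODE M21 (GRCm38), in which 54809 genes were found. Versions of Trimmomatic and STAR are not given in the sources used here. Nothing says that same-genotype mice came from separate litters.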

Additional observations from a re-analysis of the deposited data

How the results depend on the processing

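The count of genes with an adjusted p under 0.05, 1355 (591 higher, 764 lower), was 2230 (1055 and 1175) with DESeq2's test, 738 (263 and 475) with the replicate block, 439 (135 and 304) with GC offsets, 825 (372 and 453) with length offsets, 424 (102 and 322) with GC offsets and the block, and 476 (160 and 316) with length offsets and the block. Leaving out 1 mouse gave 77 to 1149 genes (11 to 466 higher, 66 to 683 lower), the fewest without wild-type mouse 1. Of the 10 RNAs, 2 passed; with GC or length offsets, with or without the block, 1 did, and with 1 mouse left out 0 to 2 did. Neat1 and Mirg kept their direction under all 17 alternatives (log2 fold changes -0.40 to -0.18 and 0.27 to 0.40) and each lost its call under 8. The block left both called (adjusted p = 0.0491 and 0.0418); same-numbered mice did not pair, since their deviations correlated at 0.40, -0.36 and 0.39 in pairs 1, 2 and 3, and not every mouse correlated best with its own number. With DESeq2's test the calls were 9 among the imprinted genes (3 in the report), 6 among the speckle proteins (3), 8 among the other long noncoding genes (1) and 8 among the neighbours (5). The cause of these changes was not tested.

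Signs turned for 6 RNAs that had not passed. With GC offsets, and with GC offsets and the block, the log2 fold change was 0.021 and 0.022 for Malat1, 0.10 and 0.10 for Rian, -0.043 and -0.042 for Miat, and 0.017 and 0.020 for Snhg11. With length offsets, and with these and the block, it was 0.054 and 0.055 for Meg3, 0.015 and 0.015 for Rian, and 0.0099 and 0.013 for Snhg11. With 1 mouse left out it ran from -0.22 to 0.056 for Malat1 (above 0 without wild-type or transgenic mouse 1), from -0.029 to 0.14 for Miat (below 0 without wild-type mouse 3, at -0.011, or transgenic mouse 1), from -0.11 to 0.035 for Snhg11 (above 0 without wild-type mouse 1), and from -0.030 to 0.18 for Pantr1 (below 0 without transgenic mouse 1). Across the left-out mice, the difference in the log2 ratio of Meg3 to Rian ran from -0.067 to 0.12. It was below 0 without wild-type mouse 3 or transgenic mouse 1. The difference for Meg3 to Mirg ran from -0.45 to -0.39, for Rian to Mirg from -0.51 to -0.35 and for Malat1 to Neat1 from 0.079 to 0.36. That in the share of counts of the 10 RNAs ran from -0.098 to -0.019 percentage points. Offsets were not applied to ratios or shares. With GC offsets the log2 fold change was -0.10 for Meg3 and 0.10 for Rian.

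With 3 mice per genotype, p-values rest on the spread between few animals, and a call near the threshold can change with 1 of them. At the depth of these libraries the counts of the 10 RNAs were at least 909 per library.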
